A study of Mus musculus with 6 samples.

Results

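The genes of DNA replication and mitosis described here are 31 of the 19060 genes in a counts table made by bulk RNA sequencing of the proximal mouse incisor. They are a list of gene names and comprise 9 S-phase genes (Mcm2 to Mcm7, Pcna, Rrm2 and Tyms) and 22 mitotic genes. The incisors came from 3 control samples (Fgfr1fl/fl) and 3 mutant samples (Gli1CreER;Fgfr1fl/fl), on a mixed background, and in the labels the controls are wild type and the driver is Gli1-Cre. If the controls were Fgfr1fl/fl and not wild type, both groups carried Fgfr1 alleles flanked by loxP sites. Tamoxifen was given at 1 month of age, and the tissue was collected 1 week later. The Cre is expressed from Gli1, so it acts in Gli1+ cells, which include the mesenchymal stem cells, while the RNA came from the whole proximal end. The controls carried no Cre, so effects of Cre itself and of the loss of Fgfr1 cannot be told apart.

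Fgfr1, the deleted receptor gene, was at 529, 924 and 434 CPM (counts scaled to a common library size by the upper quartile) in controls 1, 2 and 3 and at 148, 318 and 262 CPM in mutants 1, 2 and 3. All the mutant values lay below all the control values, with a log2 change of -1.37 ± 0.40 (standard error; edgeR's quasi-likelihood test, adjusted p = 0.0881). The adjusted p of Fgfr1 was 0.00323 in DESeq2 and ran from 0.00323 to 0.369 over the alternatives, and with offsets for transcript length and GC content its log2 change was -0.76. The mutant libraries were shallower, with 5276557, 11819576 and 11358282 counts against 32292649, 31060222 and 32712448 in the controls. The 9 S-phase genes took 9948, 7913 and 12454 counts in the controls and 1734, 2911 and 2760 in the mutants. The 22 mitotic genes took 8990, 10910 and 14808 counts in the controls and 1854, 2978 and 2880 in the mutants.

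A dividing cell switches these genes on in successive waves. Around the start of S phase, E2F factors release the genes for the replicative helicase, the sliding clamp and the enzymes that make DNA precursors. In G2 and mitosis, the genes for cyclin B, the mitotic kinases, the kinetochore and the spindle follow, many of them through a short promoter element called CHR (cell cycle genes homology region), bound by the MuvB core of the DREAM and MYB-MuvB complexes. In the ever-growing mouse incisor, dividing cells are concentrated at the proximal end, as transit amplifying cells of the mesenchyme and in the epithelium of the cervical loop. Bulk RNA adds up all of them, so fewer dividing cells and less of each transcript per dividing cell cannot be told apart.

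The promoters of both waves were read from RefSeq (GRCm38.p6), in windows of 250 bases before to 50 bases after the start, which matched 27 of the 31 members. Windows for Mcm4, Ccna2, Tpx2 and Aurkb were not used here. The motifs searched on both strands were E2F (TTTCGCGC, TTTGGCGC, TTTCCCGC or TTTGCCGC), CHR (TTTGAA or TTCGAA) and the CCAAT box, and overlapping matches were allowed. An E2F match was found for 4 of 8 S-phase genes (50% of them: Mcm3, Mcm5, Mcm6 and Mcm7) and for 1 of 19 mitotic genes (Cdk1, 5.26%), against 2.60% of 27025 genes with a window. A CHR match was found for 2 of 8 S-phase genes (Mcm2 and Mcm7, 25%) and for 15 of 19 mitotic genes (78.9%), against 21.7% of all windows. A CCAAT match was found for 7 of 8 (87.5%) and 17 of 19 (89.5%), against 41.1% of all windows. The windows of Ccnb1, Birc5, Cenpe and Nusap1 held no CHR match, which says only that these letters are not in them. The stretches before the start, which end where another annotated exon begins and so hold 229 bases for Hmmr and 250 for the others, are shown for 3 subunit genes of the helicase (Mcm3, Mcm5 and Mcm6) and 3 mitotic genes of different behaviour (Top2a, Mki67 and Hmmr), 5′ to 3′ on the gene's strand, with motif matches in capitals. In Mcm5 and Mcm6, 2 E2F matches on opposite strands overlap and make 1 longer run of capitals, and both E2F matches of Mcm3 lie after the start, outside the stretch shown, as does the CHR match of Hmmr.
Mcm3, chr1:20820313-20820562, minus strand: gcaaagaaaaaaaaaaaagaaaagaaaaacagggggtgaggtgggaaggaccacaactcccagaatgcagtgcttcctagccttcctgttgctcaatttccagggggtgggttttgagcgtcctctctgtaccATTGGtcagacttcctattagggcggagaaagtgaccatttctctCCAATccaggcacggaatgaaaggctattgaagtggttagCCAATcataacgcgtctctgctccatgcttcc
Mcm5, chr8:75109259-75109508, plus strand: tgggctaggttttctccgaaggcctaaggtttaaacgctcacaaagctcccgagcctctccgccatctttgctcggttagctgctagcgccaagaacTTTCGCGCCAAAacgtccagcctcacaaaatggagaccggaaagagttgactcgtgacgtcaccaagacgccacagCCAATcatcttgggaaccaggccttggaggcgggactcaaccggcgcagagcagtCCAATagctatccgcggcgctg
Mcm6, chr1:128359706-128359955, minus strand: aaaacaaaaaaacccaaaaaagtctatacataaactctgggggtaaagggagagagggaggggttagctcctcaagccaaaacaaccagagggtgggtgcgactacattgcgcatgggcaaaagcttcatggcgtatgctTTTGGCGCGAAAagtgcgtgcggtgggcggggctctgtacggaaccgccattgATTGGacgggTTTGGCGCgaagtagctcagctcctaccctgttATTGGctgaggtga
Top2a, chr11:99024190-99024439, minus strand: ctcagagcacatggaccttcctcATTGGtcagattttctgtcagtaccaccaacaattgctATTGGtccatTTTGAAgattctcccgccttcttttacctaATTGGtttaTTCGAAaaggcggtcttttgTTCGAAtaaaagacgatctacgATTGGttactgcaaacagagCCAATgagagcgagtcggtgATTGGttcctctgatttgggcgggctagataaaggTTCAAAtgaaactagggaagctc
Mki67, chr7:135716380-135716629, minus strand: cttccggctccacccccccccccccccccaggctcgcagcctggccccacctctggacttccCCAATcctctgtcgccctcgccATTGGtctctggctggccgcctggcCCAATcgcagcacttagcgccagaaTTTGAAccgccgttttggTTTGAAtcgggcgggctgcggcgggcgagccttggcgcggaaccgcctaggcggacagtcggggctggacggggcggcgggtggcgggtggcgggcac
Hmmr, chr11:40733438-40733666, minus strand: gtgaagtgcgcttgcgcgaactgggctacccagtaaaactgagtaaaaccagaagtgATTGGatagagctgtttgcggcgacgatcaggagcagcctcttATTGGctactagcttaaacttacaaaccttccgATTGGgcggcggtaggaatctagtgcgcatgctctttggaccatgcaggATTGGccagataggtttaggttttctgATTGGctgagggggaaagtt

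The class means of the S-phase genes overlapped between mutant and control incisors, and those of the mitotic genes were lower in the mutants by a narrow margin on the log scale only. The mean log2(CPM + 1) of the S-phase genes was 4.94, 4.58 and 5.29 in the controls and 5.01, 4.61 and 4.63 in the mutants. The groups overlapped, and the mutant mean lay below the control mean by 0.19, within the control SD of 0.35. The mean log2(CPM + 1) of the mitotic genes was 3.49, 3.66 and 4.15 in the controls and 3.48, 3.23 and 3.35 in the mutants. Here all 3 mutant samples lay below all 3 controls, with mutant 1 and control 1 nearly level. The order of mutant 1 and control 1 hangs on single members at or near 0 in mutant 1, such as Aurkb, Bub1 and Hmmr. These were at 0, 0 and 0.218 CPM in mutant 1 and at 10.2, 3.70 and 3.58 CPM in control 1. Other members, Ube2c among them, were higher in mutant 1 than in control 1. The group means of the mitotic genes differed by 0.41 against a control SD of 0.34 (n = 3 per group). The same mean over all genes tested differed by 0.094 in the same direction. Summed CPM, which the most abundant members dominate, overlapped between the groups for both classes. The S-phase sum was 290, 217.5 and 360 CPM in the controls and 378.5, 248.6 and 278 CPM in the mutants, and the mitotic sum was 262, 299.8 and 428 CPM in the controls and 405, 254 and 290 CPM in the mutants. Mutant 1 was the highest of all 6 samples for the S-phase sum and above 2 controls for the mitotic sum.

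**Figure D1:**
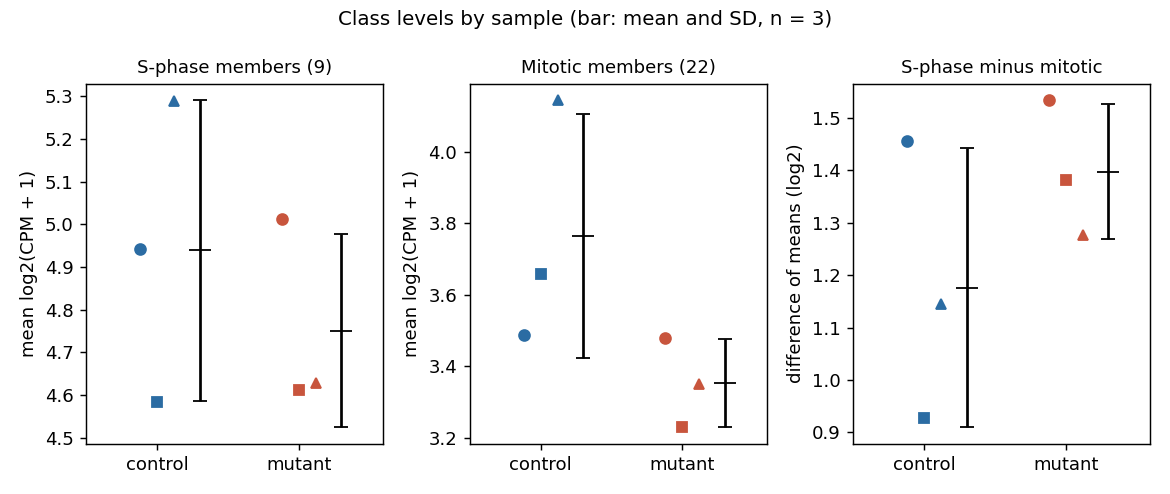
Mean log2(CPM + 1) of the 9 S-phase genes, of the 22 mitotic genes and the difference between both, in each of 3 control and 3 mutant samples (points), with the group mean and SD beside them. The vertical axes do not start at 0. The mitotic panel shows the mutant samples at 3.23 to 3.48, below the controls at 3.49 to 4.15, and the other panels show overlapping groups.

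The contrast between the waves was taken as the S-phase mean minus the mitotic mean in each sample. It was 1.46, 0.93 and 1.14 in the controls and 1.53, 1.38 and 1.28 in the mutants. The mutant mean (1.40 ± 0.13, SD, n = 3) exceeded the control mean (1.18 ± 0.27, SD, n = 3) by 0.22, less than the control SD, and control sample 1 lay among the mutant samples. With offsets for transcript length and GC content the difference was 0.40, with a pseudocount of 5 it was 0.065, and with the 6 members whose gene models overlap another gene left out it was 0.50.

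In the gene-by-gene comparison, 3 of the 31 members passed an unadjusted p under 0.05 and a 1.5-fold change (9.68% of them). All 3 were lower in the mutants, Mcm3 and Mcm7 of the S-phase class and Hmmr of the mitotic class, and 0 were higher. The same threshold was passed by 19.8% of the 15826 genes tested, with 8.92% lower and 10.9% higher, so the members' share lay below the background. At an adjusted p under 0.05, edgeR called 0 members, against 6.79% of all genes (3.72% higher and 3.06% lower), DESeq2 called 2 (Hmmr and Mcm7, 3.16% of all genes lower and 10.2% in either direction) and limma-voom called 1 (Hmmr, 3.24% of all genes lower and 8.47% in either direction). All 31 members passed the filter on low counts. Hmmr, with 1, 0 and 0 counts in the mutants, passed it through the controls alone, so it could be called only as lower. The median log2 change was 0.01 over the S-phase members and -0.30 over the mitotic members, against -0.04 over all genes tested, with 5 S-phase changes above 0 and 4 below, and 8 mitotic changes above 0 and 14 below. Without control 3, the mitotic median was -0.06. It was -0.69 with the 6 members whose gene models overlap another gene left out, an alternative chosen after seeing the data. Control and mutant values did not overlap for 7 of the 31 members (22.6%), 6 of them lower and 1 higher in the mutants, against 30.4% of all genes tested.

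**Figure D2:**
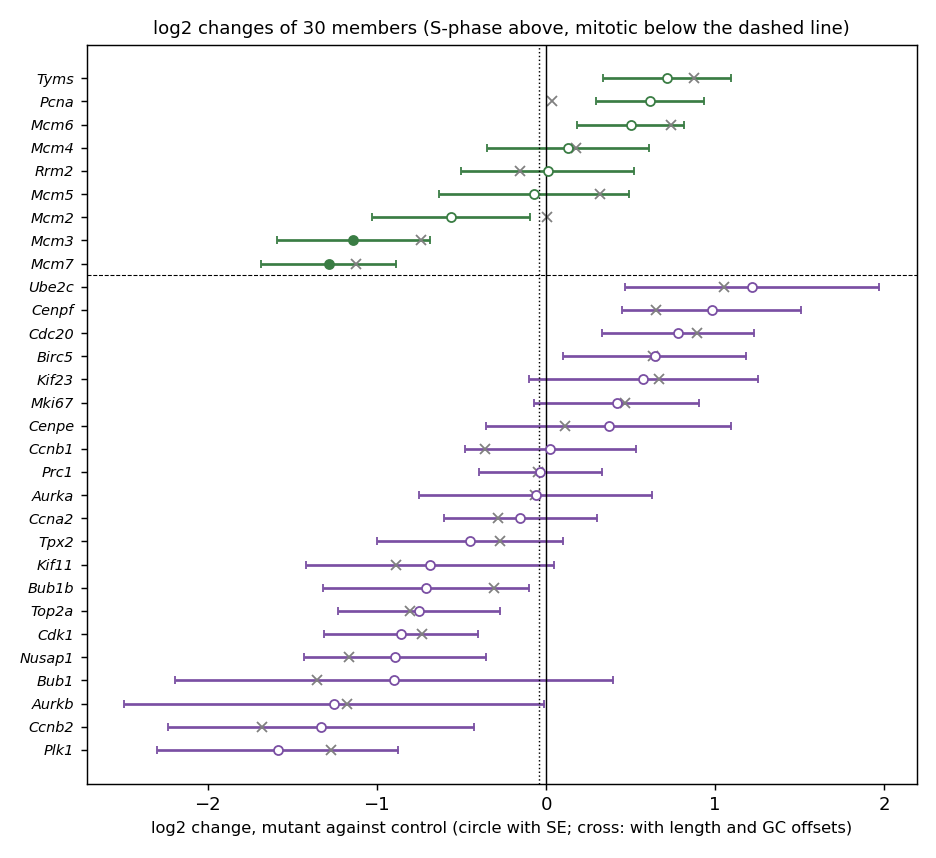
Log2 changes of mutant against control for 30 members (circles with standard error; filled, unadjusted p under 0.05 and over 1.5-fold) in order of size within each class, with crosses for the same change after length and GC offsets. Hmmr, with 1 count in all 3 mutant samples together, is left off the plot. The dotted line marks the median of all genes tested, -0.04. S-phase changes run from -1.28 for Mcm7 to 0.71 for Tyms, and the mitotic ones shown run from -1.59 for Plk1 to 1.22 for Ube2c.

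Mcm2 to Mcm7 encode the subunits of the hexameric replicative helicase, which is loaded onto origins in G1 and unwinds DNA in S phase. Mcm7 (chr5:138164583-138172422, GRCm38) had 38.5, 32.9 and 43.4 CPM in the controls and 8.29, 20.7 and 17.8 CPM in the mutants. Every mutant value was below every control value, and the lowest was that of the shallowest library, mutant 1. In edgeR's quasi-likelihood test the log2 change of Mcm7 was -1.28 (standard error 0.40, 95% interval -2.20 to -0.37, unadjusted p = 0.0116, adjusted p = 0.106), and the call was lost without control 3 (unadjusted p = 0.0515). Its gene model overlaps that of Ap4m1 by 421 bases and that of Cops6 by 64 bases on the other strand, and the strand setting of the counting is not given in the sources used here. Ap4m1 was at 20.9, 21.2 and 23.3 CPM in the controls and 1.75, 13.6 and 13.2 CPM in the mutants, below the controls in every mutant and lowest in mutant 1, as Mcm7 was (log2 change -1.18, unadjusted p = 0.120 in edgeR). Cops6 went the other way, with 144, 75.2 and 129 CPM against 290.5, 151 and 153 CPM (log2 change 0.77, unadjusted p = 0.0651 in edgeR). The part of reads from Ap4m1 in the values of Mcm7 was not tested.

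Mcm3 (chr1:20802968-20820312) had 24.4, 23.3 and 35.3 CPM in the controls and 19.4, 7.60 and 10.9 CPM in the mutants. The groups were apart, with mutant 1 nearest to the controls. In edgeR's quasi-likelihood test its log2 change was -1.14 (standard error 0.45, unadjusted p = 0.0349, adjusted p = 0.203). With length and GC offsets the change was -0.74 with an unadjusted p of 0.135, and the call was also lost when any sample other than mutant 1 was left out.

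The other 4 helicase genes did not pass, and for 3 of them mutant 1 lay apart from mutants 2 and 3. Mcm2 had 30.7, 24.0 and 41.4 CPM in the controls and 37.3, 14.9 and 13.4 CPM in the mutants. Mcm4 had 22.3, 21.96 and 26.6 CPM in the controls and 46.5, 16.6 and 15.02 CPM in the mutants. Mcm5 had 35.6, 24.0 and 48.3 CPM in the controls and 67, 21.1 and 15.4 CPM in the mutants. For Mcm4 and Mcm5, mutant 1 was the highest of all 6 samples and mutants 2 and 3 were the lowest. For Mcm2, mutants 2 and 3 were the lowest and mutant 1 lay among the controls. Mcm6 had 25.8, 24.5 and 39.2 CPM in the controls and 53.5, 37.7 and 35.7 CPM in the mutants, a log2 change of 0.50 (standard error 0.32, unadjusted p = 0.150). Its 3 mutant values were above controls 1 and 2 and straddled control 3.

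Because the subunits form 1 complex, their shares of the summed Mcm2 to Mcm7 level per kilobase of transcript were also taken. Mcm6 made up 11.5, 13.0 and 13.4% of that sum in the controls and 19.8, 26.3 and 27.5% in the mutants. Mcm3 made up 13.0, 14.8 and 14.5% in the controls and 8.63, 6.35 and 10.1% in the mutants, and Mcm7 made up 28.9, 29.4 and 25% in the controls and 5.18, 24.3 and 23.2% in the mutants. The groups were apart for these 3 subunits, higher for Mcm6 and lower for Mcm3 and Mcm7, and overlapped for Mcm2, Mcm4 and Mcm5. The ratio of Mcm6 to Mcm7 per kilobase, a pair chosen after its values were seen, was 0.397, 0.442 and 0.536 in the controls and 3.83, 1.08 and 1.19 in the mutants. The highest subunit exceeded the lowest 2.88, 2.50 and 2.71 times in the controls and 6.57, 4.14 and 2.74 times in the mutants, so the levels of the subunits were less even in mutants 1 and 2 than in any control. These shares set transcript levels side by side and take no account of protein.

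**Figure D3:**
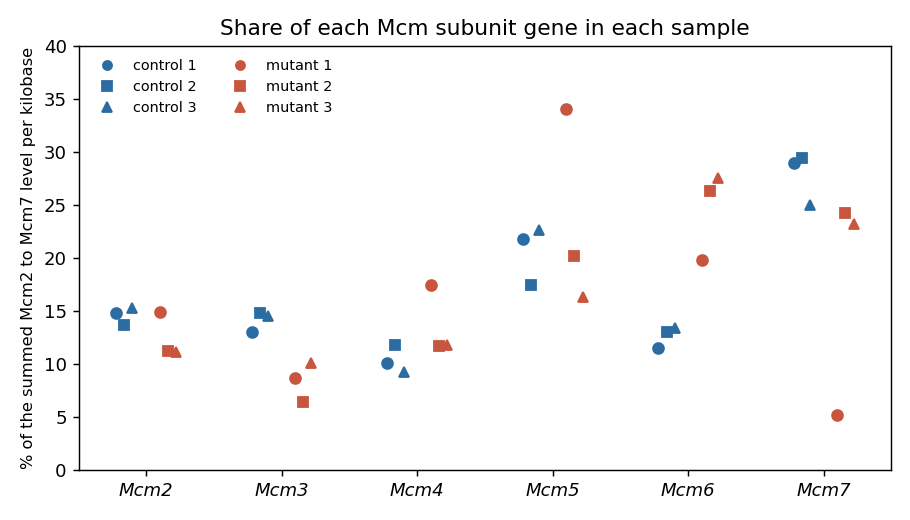
Share of each helicase subunit gene in the summed Mcm2 to Mcm7 level per kilobase (%), in each control (blue) and mutant (red) sample. Mcm6 stands at 11.5 to 13.4% in the controls and at 19.8 to 27.5% in the mutants, and Mcm3 and Mcm7 stand lower in all mutants than in all controls.

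The remaining S-phase genes act at the fork and in precursor supply. Pcna, the sliding clamp of the replicative polymerases and the member with the highest level per kilobase in both groups, had 69.2, 39.4 and 71.0 CPM in the controls and 108.5, 63.0 and 104 CPM in the mutants. Mutant 2 lay between the control values and the other mutants lay above them. The log2 change of Pcna (chr2:132249162-132253314) was 0.61 (standard error 0.32, unadjusted p = 0.0902), and it was 0.04 with length and GC offsets. A pseudogene, Pcna-ps2, is listed apart, with 262, 149 and 276 counts in the controls and 16, 88 and 193 in the mutants, and the counting could divide reads between both. Of the members, 4 have a pseudogene named after them in the table, and those of Tyms and Ccnb1 had at most 21 and 12 counts in any sample.

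Tyms, thymidylate synthase, had 27.2, 13.4 and 30.5 CPM in the controls and 30.3, 43.0 and 43.1 CPM in the mutants. Mutants 2 and 3 were above all the controls and mutant 1 was level with control 3. Its log2 change of 0.71 (chr5:30058202-30073617, standard error 0.38, unadjusted p = 0.0945) was the highest of the S-phase class. Rrm2, the small subunit of ribonucleotide reductase, had 16.3, 14.0 and 24.2 CPM in the controls and 7.64, 23.9 and 23.0 CPM in the mutants, with a log2 change of 0.01 and a 95% interval from -1.17 to 1.19. Within the S-phase class, mutant 1 was the lowest mutant for Rrm2, Tyms and Mcm7 and the highest for the other 6 genes.

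**Figure D4:**
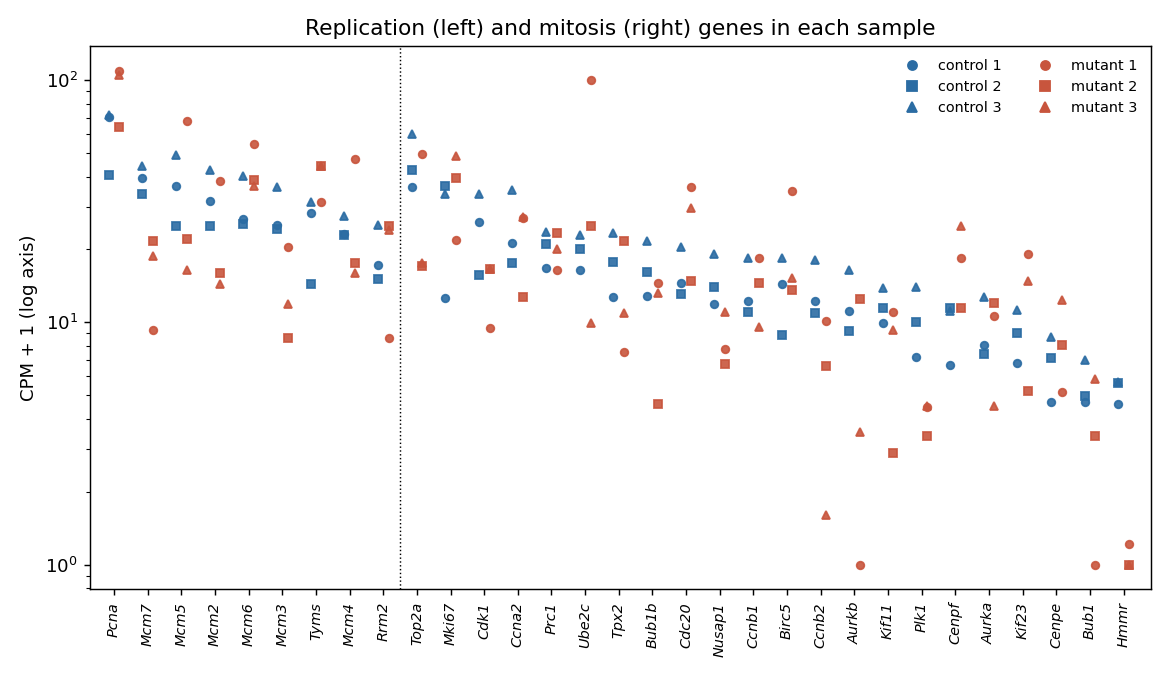
CPM + 1 (log axis) of all 31 members in each sample, S-phase genes left of the dotted line and mitotic genes right of it, in order of control level. Control 3 (blue triangle) is the highest control for 29 of 31 members, and no mutant sample is the highest mutant for more than 16.

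In the mitotic class, Hmmr stood apart. Hmmr (chr11:40701395-40733422) encodes a microtubule-binding protein of the spindle poles that also binds hyaluronan. It had 123, 168 and 162 counts in the controls and 1, 0 and 0 counts in the mutants, which is 3.58, 4.62 and 4.68 CPM against 0.218 CPM, 0 and 0. A count of 0 allows up to 3 counts, or 0.256 CPM in mutant 2 and 0.302 CPM in mutant 3, both far below the lowest control. The control level was 113 times the mutant level (95% interval 20.1 to 4464, counting error only). Its unadjusted p was 0.00377 and its adjusted p 0.0528 under edgeR's quasi-likelihood model. The adjusted p was 0.00201 in DESeq2 and ran from 0.00201 to 0.326 over the alternatives. With the control counts thinned to the mean depth of the mutants, its unadjusted p was 0.00390.

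None of the cyclins and kinases that drive entry into mitosis passed the threshold, and the groups were apart for Plk1 and Ccnb2. Cdk1, the mitotic cyclin-dependent kinase, had 24.9, 14.7 and 32.9 CPM in the controls and 8.51, 15.6 and 15.6 CPM in the mutants (log2 change -0.86, unadjusted p = 0.0958). Plk1, the polo-like kinase of centrosomes and kinetochores, had 6.21, 9.07 and 12.9 CPM in the controls and 3.49, 2.39 and 3.53 CPM in the mutants. The groups of Plk1 were apart, with a log2 change of -1.59 (standard error 0.71, unadjusted p = 0.0562). Ccnb2, a B-type cyclin partner of Cdk1, had 11.2, 9.98 and 17.1 CPM in the controls and 9.17, 5.64 and 0.605 CPM in the mutants. The groups of Ccnb2 were apart too, and its mutant values varied so widely that the 95% interval of its log2 change of -1.33 ran from -3.41 to 0.75. Without mutant 1 the change was -2.04 (unadjusted p = 0.0514 in edgeR). A pseudogene, Ccnb2-ps, is listed apart with 68, 67 and 51 counts in the controls and 0, 0 and 18 in the mutants, beside 386, 363 and 591 against 42, 66 and 6 for Ccnb2 itself, so in mutant 3 the pseudogene held more counts than the gene. The counting could divide reads between the pair. Ccnb1, the other B-type cyclin, was nearly level at 11.2, 10 and 17.5 CPM against 17.5, 13.5 and 8.57 CPM, and Ccna2, the A-type cyclin of S phase and G2, had a log2 change of -0.15.

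The Aurora kinases split by sample. Aurkb, the kinase of the chromosomal passenger complex, had 349, 299 and 535 counts in the controls and 0, 134 and 25 counts in the mutants. Mutant 2, at 11.4 CPM, lay within the control range of 8.22 to 15.5 CPM, while mutant 1 was at 0, which allows up to 0.655 CPM in that library. Aurka, the centrosomal kinase, had a log2 change of -0.06 with a 95% interval from -1.64 to 1.52. Birc5, the survivin subunit of the same passenger complex, had 13.4, 7.86 and 17.4 CPM in the controls and 33.8, 12.6 and 14.3 CPM in the mutants. Only mutant 1 was above the controls for Birc5, in the same library that held 0 counts of Aurkb.

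The spindle checkpoint kinases Bub1 and Bub1b had log2 changes of -0.90 and -0.71 and overlapping groups. Bub1 had 127, 145 and 208 counts in the controls and 0, 28 and 48 in the mutants, and the counts of Bub1b were 408, 549 and 717 against 62, 42 and 121. The members that end mitosis through the anaphase-promoting complex had log2 changes above 0 that did not pass. Cdc20, its coactivator, had 13.5, 12.1 and 19.6 CPM in the controls and 35.4, 13.8 and 28.7 CPM in the mutants (log2 change 0.78, unadjusted p = 0.119). Ube2c, its ubiquitin-conjugating enzyme, had 15.4, 19.1 and 22.02 CPM in the controls and 99.5, 23.9 and 8.97 CPM in the mutants. The mutant values of Ube2c (chr2:164769898-164778822) spanned more than the whole control range on both sides, and its log2 change of 1.22 (standard error 0.75, unadjusted p = 0.143) became -0.21 without mutant 1. The gene model of Ube2c overlaps by 1662 bases that of Tnnc2, a troponin of fast skeletal muscle on the other strand, which had 0.262, 134 and 1.94 CPM in the controls and 816, 9.22 and 127 CPM in the mutants. Ube2c and Tnnc2 were both highest in mutant 1, and the part of this overlap in the value was not tested.

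Of the motors and spindle proteins, Kif11, the kinesin that pushes the spindle poles apart, had 8.97, 10.4 and 12.8 CPM in the controls and 10.04, 1.88 and 8.26 CPM in the mutants. Kif23, the kinesin of the central spindle, had 5.77, 8.08 and 10.3 CPM in the controls and 18.1, 4.18 and 13.8 CPM in the mutants. Mutant 2 was the lowest sample for both kinesins. Nusap1, a microtubule-bundling protein, had 10.95, 12.9 and 18.1 CPM in the controls and 6.77, 5.72 and 10.1 CPM in the mutants, groups that were apart with a log2 change of -0.90 (unadjusted p = 0.134). Prc1, which crosslinks antiparallel microtubules of the midzone, was level, with 15.7, 20.0 and 22.6 CPM against 15.5, 22.3 and 19.1 CPM and a 95% interval of its log2 change from -0.87 to 0.80. Its gene model shares 21810 bases with that of Rccd1 on the other strand, at 4.55, 2.45 and 4.02 CPM against 0, 4.95 and 5.14 CPM. Those of Cdc20, Nusap1 and Ccna2 overlap Elovl1, Oip5 and Exosc9 by 53, 172 and 863 bases, also on the other strand. The part of these overlaps in the values was not tested. Tpx2, the activator of Aurora A on the spindle, had a log2 change of -0.45 and overlapping groups. Cenpf, a large protein of the outer kinetochore, was the 1 member whose mutant values all lay above the controls, at 17.5, 10.4 and 23.9 CPM against 5.65, 10.4 and 10.2 CPM, although mutant 2 and control 2 differed by less than the digits shown. The log2 change of Cenpf was 0.98 (standard error 0.53, unadjusted p = 0.102), and Cenpe, the kinetochore kinesin, had a log2 change of 0.37.

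Mki67 and Top2a, both in wide use as markers of proliferation, differed in pattern. Mki67, which encodes the chromosome-coating antigen Ki67, had 11.6, 35.7 and 32.97 CPM in the controls and 20.95, 38.5 and 47.5 CPM in the mutants, with a log2 change of 0.42 and a 95% interval from -0.70 to 1.54. Control 1 was the lowest and mutants 2 and 3 were the highest samples of Mki67. Top2a, the topoisomerase that untangles replicated chromosomes, had 35.2, 41.6 and 58.9 CPM in the controls and 48.5, 16.1 and 16.6 CPM in the mutants, with a log2 change of -0.75 and a 95% interval from -1.85 to 0.35. Mutants 2 and 3 were the highest samples of Mki67 and the lowest of Top2a. Both promoters hold CHR and CCAAT matches, 2 and 3 in Mki67 and 4 and 6 in Top2a.

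The members moved together among the control samples. Control 3 was the highest control for 29 of 31 members (93.6%), against 23.3% of all genes tested, and control 2 was the lowest control for all 9 S-phase members, against 42.9% of all genes. For the 22 mitotic members, the lowest control was control 1 for 14 (63.6%) and control 2 for 8 (36.4%), against 29.0 and 42.9% of all genes, so the order of these controls differed between the classes. Among the mutants, mutant 1 was the highest for 16 members, mutant 2 for 7 and mutant 3 for 8 (51.6, 22.6 and 25.8%, against 34.9, 32.9 and 32.2% of all genes). The SD of the members' log2(CPM + 1) around their group means was 0.42 in the controls and 0.27 once each sample's shared shift was taken out. In the mutants it was 0.85 before and 0.85 after, a value that includes members at or near 0 counts (Hmmr, Aurkb and Bub1).

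Mutant 1, with the fewest counts, was set aside to see which values it decided. Without it, 4 of 9 S-phase members (Mcm2, Mcm3, Mcm5 and Mcm7) and 3 of 22 mitotic members (Top2a, Plk1 and Hmmr) were lower at an unadjusted p under 0.05 and over 1.5-fold and 0 were higher, against 14.5% of all genes lower and 12.2% higher. The S-phase median moved to -0.60 and the mitotic median was -0.29. The log2 changes without mutant 1 were -1.19 for Mcm2, -0.99 for Mcm5 and -1.48 for Top2a. At an adjusted p under 0.05, Hmmr alone was called (adjusted p = 0.0407, edgeR's quasi-likelihood test), against 3.52% of all genes. Over all the alternatives, DESeq2 among them, the adjusted p of Hmmr ran from 0.00201 to 0.326.

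Shorter transcripts had higher log2 changes across the whole table, so the members were set against that trend. Spearman's rho between log2 change and transcript length was -0.34 across 15559 genes and -0.017 across the 31 members, both given as descriptions, since genes share libraries and are not replicates. The members lack short transcripts, at 1518 to 11130 bases, and within that range rho was -0.14 across 11533 genes. The median log2 change of all genes was 1.27 in the shortest of 10 equal groups by length and -0.28 in the longest. The members' median transcript length was 3031 bases against 2539.5 for all genes tested. Once offsets for length and GC content entered edgeR's fit, Mcm6 (log2 change 0.74) and Tyms (0.87) were higher, Mcm7 (-1.12) and Hmmr were lower at an unadjusted p under 0.05, and Mcm3 no longer passed. The same offsets left 7.03% of all genes higher and 7.53% lower.

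**Figure D5:**
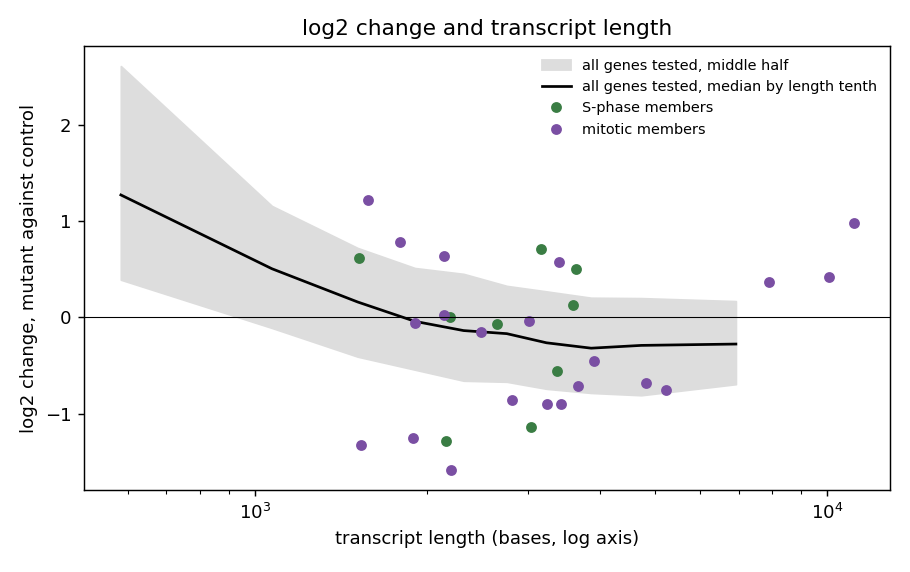
Log2 change of mutant against control by transcript length (bases, log axis). The line and band give the median and interquartile range of all genes tested in 10 groups by length, and the points are 30 members, without Hmmr. The line is highest, at 1.27, among transcripts shorter than any member's, and over the members' lengths it runs from 0.16 to -0.32.

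The other genes of replication and mitosis were counted in 10 lists of 203 genes, of which 198 were tested. Of these, 15 were higher (7.58%) and 17 lower (8.59%), against background shares of 10.9% and 8.92%. The balance moved with the scaling and the model. With total counts only, 8 were higher and 24 lower (7.92 and 14.8% of all genes), with limma-voom 13 and 25 (11.2 and 12.6%), and with length and GC offsets 7 and 14 (7.03 and 7.53%). Of 18 genes for origin licensing and firing, 2 rose and 1 fell, with a median log2 change of 0.56, or 0.27 with the offsets. Orc4 and Orc2, subunits of the origin recognition complex, had log2 changes of 1.48 and 1.08 (0.62 and 0.69 with the offsets), and Orc1, its largest subunit, had 44, 22 and 65 counts in the controls and 0 in each mutant. Of 33 fork genes, 3 rose and 1 fell: the small polymerase subunit gene Pole4 (1.55, adjusted p = 0.0464) and Rpa3, of the single-strand binding protein (1.86, adjusted p = 0.0491, edgeR's quasi-likelihood test), were among the former, and the flap endonuclease gene Fen1 fell with 14.9, 12.01 and 21.4 CPM in the controls and 5.89, 5.12 and 4.64 CPM in the mutants. With length and GC offsets the change of Rpa3 was 0.05 and that of Pole4 was 0.92. None of 7 further dNTP genes passed, with the smallest p at Dctpp1 (0.0814).

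Among 13 genes of cyclin and CDK control, 2 rose and 1 fell. Ccne2, a cyclin E of S-phase entry, had 5.04, 3.08 and 7.51 CPM in the controls and 29.0, 25.4 and 22.9 CPM in the mutants, with a log2 change of 2.30 (adjusted p = 0.0464, edgeR's quasi-likelihood test). The Ccne2 groups were wide apart, and with length and GC offsets its change was 1.18. Cks2, a CDK-binding subunit, rose by 1.33 and was at -0.10 with the offsets, and Ccnf, of the cyclin F ubiquitin ligase, fell with 10.6, 8.58 and 14.5 CPM against 0, 0.427 and 3.33 CPM. Of 16 genes of the anaphase-promoting complex, 3 rose and 5 fell, with Anapc13 (1.01, and -0.12 with the offsets) and Anapc11 (0.80) higher and Anapc5 (-0.69) and the coactivator Fzr1 (-1.34, adjusted p = 0.0464, edgeR's test) lower. Fzr1 had 32.2, 34.1 and 37.8 CPM in the controls and 12.2, 15.5 and 13.1 CPM in the mutants, and unlike its sister coactivator Cdc20 lay below the controls in every mutant.

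Of 40 kinetochore and checkpoint genes, 3 rose and 3 fell. Spc24, of the Ndc80 complex, rose by 1.497, and Mad2l1, of the checkpoint, by 1.317 (0.70 without mutant 1), while Sgo1, the protector of centromeric cohesion, had 113, 92 and 166 counts in the controls and 1, 0 and 0 in the mutants. Of 26 genes for motors, spindle and cytokinesis, 0 rose and 2 fell. These were Kif14, with 35, 112 and 143 counts against 0 in each mutant, and Kif2c, with 159, 189 and 242 counts against 0, 5 and 0. Zeros were common in the mutant libraries. In mutants 1, 2 and 3, 30.3, 17.1 and 19.7% of all 19060 genes were at 0, against 3.83 to 3.96% in the controls. These shares are for single libraries and genes of any level. The share at 0 in every mutant among genes of similar control counts was not taken. Orc1, Sgo1, Kif14, Kif2c and the histone gene Hist1h2an passed the filter on low counts through the controls alone, so they could be called only as lower.

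None of 20 condensin and cohesin genes passed, with the smallest p at Stag1 (0.165). Of 21 regulators of both waves, E2f6, an E2F without an activation domain, rose by 0.90, and Tfdp1, the dimer partner of the E2Fs, fell by 0.97 on the log2 scale, from 69.7, 43.3 and 64.5 CPM to 26.9, 32.5 and 31.4 CPM. Of the 9 replication-dependent histone genes in the table, 4 were tested, 1 rose (Hist1h2al, 1.92) and 3 fell. Hist1h2ap had 111, 32.4 and 144 CPM in the controls and 1.96, 11.2 and 0.302 CPM in the mutants, and Hist1h2an had 259, 18 and 186 counts against 0 in each mutant. These histone genes are near-identical copies whose reads the counting could divide, so their values are uncertain. Of the genes named from these lists, Orc4, Orc2, Rpa3, Cks2, Ccnf, Mad2l1, Anapc13, Anapc5 and Hist1h2al lost their call with the offsets, and Orc2, Mad2l1, Anapc11, Anapc5 and E2f6 lost it without mutant 1. Ccnf and Anapc11 lost theirs at a similar log2 change. That of Ccnf was -3.11 in the main fit and -2.63 with the offsets. That of Anapc11 was 0.80 in the main fit and 0.77 without mutant 1. At an adjusted p under 0.05, edgeR called 4 of the 198 tested genes of these lists higher and 4 lower, against 3.72 and 3.06% of all genes. The adjusted calls of Ccne2, Pole4, Rpa3 and Fzr1 were lost whichever sample was left out, with lowest adjusted p-values in edgeR of 0.0511, 0.0601, 0.0514 and 0.0522. Over all the alternatives their adjusted p-values ran from 0.000301 to 0.472, 0.00213 to 0.19, 0.00416 to 0.982 and 0.00296 to 0.397. Those of Orc1 and Kif14 (adjusted p = 0.0475 and 0.0476, edgeR's test) were lost likewise, with lowest values of 0.0558 and 0.0543. That of Hist1h2al (adjusted p = 0.0449, edgeR's test) held without mutant 1 (0.0466) and rose to at most 0.19 with 1 sample left out.

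Cell type markers showed what else differed between the libraries. The dental epithelium and ameloblast list, all 11 genes of which were tested and 0 called, summed to 86060, 97900 and 122000 CPM in the controls and 34090, 32220 and 70540 CPM in the mutants, led by the enamel protein gene Amelx. Amelx and Ambn made up most of that sum. The groups were apart for 4 of the 11 genes, Amelx, Ambn, Krt5 and Krt14, all lower in the mutants. They overlapped for the others, and Epcam went the other way, at 36.0, 36.4 and 58.5 CPM against 65.3, 58.2 and 72.2 CPM. The dental mesenchyme list (10 of 10 tested, 0 called, led by Msx1) summed to 823, 683 and 620 CPM in the controls and 767, 821 and 671 CPM in the mutants. The erythroid list (7 of 10 tested, 3 higher and 1 lower, led by Hbb-bs) summed to 865, 899 and 449 CPM in the controls and 1396, 1007 and 2720 CPM in the mutants. Hbb-bs and Hba-a2 made up most of the mutant sums, while Hba-a1 was at 203, 174 and 110 CPM against 18.3, 45.6 and 53.7 CPM. Epb42 and Klf1 were at 0 in every mutant. In the controls they reached at most 0.522 CPM, under the 0.655 CPM that a count of 0 allows in mutant 1. The skeletal muscle list (10 of 10 tested, 0 called, led by Acta1) summed to 9.82, 2735 and 30.02 CPM in the controls and 6537, 161 and 1067 CPM in the mutants. Control 3, the highest control for nearly all members, also had the highest epithelial sum of the controls. Its erythroid and macrophage sums (macrophage, 422, 440 and 145 CPM in the controls) were the lowest. Its dental mesenchyme sum was the lowest too, through Msx1 (332, 234 and 165 CPM in the controls). Gli1, of the same list, was highest in control 3 (22.6, 23.8 and 33.4 CPM). The endothelial list (6 of 6 tested, 1 lower, led by Eng) summed to 221, 349 and 222 CPM in the controls and 186, 188 and 171 CPM in the mutants. The part of these cell types in the members' values was not tested.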

How the data were processed

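Single reads of 75 bases were trimmed and aligned to mm10 (GRCm38) by the authors in Partek Flow, and their processing notes also name TopHat2 2.0.8. They deposited estimated counts per gene, which are expected counts that were not normalized, and kept genes with a count of at least 10 in some sample. The counting model, the annotation and the strand setting are not given in the sources used here. A deposited table of the authors' own comparison (p-values, adjusted p-values, ratios and fold changes) was not used.

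Counts were rounded to whole numbers, since they were not whole as the planned test on raw counts assumed. The quasi-likelihood model of edgeR 4.0.16 (R 4.3.3), two-sided and with genotype alone as a term, was fitted after upper-quartile scaling and a filter on low counts (minimum 10, total 15), and p-values were adjusted by Benjamini-Hochberg over all 15826 genes tested. Standard errors were taken from the log2 change and its F statistic. DESeq2 1.42.0, limma 3.58.1 (voom), other scalings and filters, control counts thinned to the mutants' mean total, and offsets from natural splines with 4 degrees of freedom on transcript length and GC content were tried as alternatives. Lengths and positions came from GENCODE M21, in which 18637 symbols matched directly and 4 through a synonym. Intervals of ratios and the floor of 3 counts cover counting error only.

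Full values were given for members past the threshold and, in each class, for those with the highest and lowest change and the highest level per kilobase. Other members were added by role, and up to 2 genes that rose and 2 that fell were named in each further list, except 1 gene that is not reported here. The members and lists were chosen with earlier results of these data known. The labels name separate samples and do not say that they came from separate animals, so p-values measure the spread between these samples.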

Additional observations from a re-analysis of the deposited data

How the results depend on the processing

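The 3 calls among the members became 5 with total counts only (22.7% of all genes), 5 with limma-voom (23.8%; all lower in both) and 8 (1 higher and 7 lower) with length and GC offsets and without mutant 1 together (23.2%), an alternative chosen after seeing the data. The count of 0 members at an adjusted p under 0.05 became 1 with total counts only (7.18% of all genes), 2 with DESeq2 (10.2%) and 1 with limma-voom (8.47%). Over all genes, the median log2 change was -0.30 under total counts alone. The S-phase median of 0.01 has no stable sign: it was -0.08 with TMM, -0.23 with total counts only, -0.02 with DESeq2, -0.05 with thinned controls, -0.12 with the replicate block, -0.35 with limma-voom and -0.57 with the offsets and without mutant 1. With the 6 members whose gene models overlap another gene left out, also chosen after seeing the data, the mitotic median was -0.69 and the S-phase minus mitotic level was 0.50. The 32 calls in the other lists became 21 with the offsets (14.6% of all genes). Ube2c at -0.25 and Pcna at -0.021 changed sign with the offsets and without mutant 1. The causes were not tested.

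With 1 sample left out in turn, the members called ran from 1 without control 3 (12.9% of all genes) to 7 without mutant 1 (26.8%), and those past the adjusted threshold from 0 to 1. Without mutant 2, 5 members were called and 3 of them were higher, against 27.7% of all genes called and 11.1% higher. The S-phase median ran from -0.60 without mutant 1 to 0.27 without mutant 3, the mitotic median from -0.46 without control 1 to -0.06 without control 3, and the S-phase minus mitotic level from 0.094 to 0.36. The calls in the other lists ran from 14 without control 3 (12.9% of all genes) to 39 without mutant 2 (27.7% of all genes). The log2 change of Ube2c ran from -0.21 without mutant 1 to 1.69 without mutant 3.

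The labels give both groups the same replicate numbers, and the deviations of same-numbered samples correlated by 0.0742, 0.0228 and 0.0883. The paper's methods speak of 3 pairs of samples without saying what was paired. The samples were taken to share only a number, and the values under a pairing by number follow. With the replicate number as a block, 4 members were called (1 higher and 3 lower; 17.3% of all genes). The log2 change of Pcna was then 0.62 (unadjusted p = 0.0231 in edgeR). With the length and GC offsets added to the block it was 0.03 (unadjusted p = 0.881 in edgeR). The block with the length and GC offsets gave 18 calls in the other lists (4 higher and 14 lower) and 3 among the members (10.7% of all genes).

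The depth of mutant 1, in which a count of 0 allows up to 0.655 CPM, limits what can be said of members under that level there.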
